A study of Bos taurus with 8 samples.

Results

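Keratins and vimentin are among the proteins of the cytoplasmic intermediate filaments, and 9 of their genes were followed here in stem-like cell lines from bovine embryos (eSLCs) and in bovine somatic cells (SCs): KRT8, KRT18, KRT19, KRT7, KRT5, KRT14, KRT17, KRT10 and VIM. They were chosen by name, and a probe was assigned to a gene where its RefSeq accession belonged to that gene. All 9 genes had at least 1 probe, 22 in all, out of 12603 genes that could be named on the array, and 34 further keratin genes were named. All 9 passed the filter for testing, as did 10958 of the 12603 genes; KRT10 passed through the eSLC lines alone, since it was not well above background in SCs.

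The eSLC lines came from blastocysts of HanWoo, the Korean native cattle, made in 3 ways. IVP-eSLCs came from in vitro produced (fertilized) embryos and were represented by I2 (passage 35) and I9 (passage 30), NT-eSLCs came from somatic cell nuclear transfer embryos and were N2 (passage 36) and N7 (passage 30), and PA-eSLCs came from parthenogenetic embryos, which have no paternal genome, and were P1 (passage 31) and P4 (passage 36). All 6 lines were grown on mitomycin-C inactivated murine STO feeder cells in a medium holding the MEK inhibitor PD184352, the FGF receptor inhibitor SU5402 and the GSK3 inhibitor CHIR99021, and each line grew from 1 embryo colony. SCs were HanWoo cells at passages 5 and 10 in DMEM with fetal bovine serum, so medium, feeder layer and passage differ between eSLCs and SCs together with the cell type and cannot be told apart. The labels do not name the tissue of the SCs, nor say whether the 2 arrays of a condition stand for separate cultures or animals, so the p-values measure only the spread between these arrays.

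Keratins assemble as obligate pairs of 1 type I and 1 type II chain. KRT8 (type II) with KRT18 (type I) is the first pair made in the embryo, in the trophectoderm, and stays the filament of simple epithelia together with KRT19 and KRT7, whereas KRT5 with KRT14 marks the basal layer of stratified epithelia and KRT10 its differentiating layers. Vimentin is the filament protein of mesenchymal cells such as fibroblasts, and cells that pass between epithelial and mesenchymal states usually exchange one filament system for the other.

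Each of the 8 one-colour arrays gave 1 signal per probe, and signals are printed here as normalized signals, in which the array's 75th percentile is 1000. The share of spots well above background was 71.2% to 76.7%, with none saturated, and the number of arrays limits the precision. The arrays lay on 2 slides scanned separately, the first with both IVP-eSLC lines, N7 and SCs at passage 5, the second with N2, both PA-eSLC lines and SCs at passage 10. Markers of fibroblasts were well above background for 13 of 13 on both SC arrays and for 11 to 13 on the eSLC arrays. Markers of simple epithelium were so for 9 of 9 on each eSLC array and for 8 and 7 on the SC arrays, and those of trophectoderm for 11 of 11 and for 7. Most of these markers were thus detected in both cell types. CDH1, CDX2, ELF5, PAG2 and PAG11 were well above background on all 6 eSLC arrays and on neither SC array. The summed signal of the 11 trophectoderm markers was 237400 to 930000 in the lines and 12430 and 12590 in SCs. Most of the sum in SCs was TFAP2A, which read 9021 and 9773 there and 2753 to 11980 in the lines. Of the pluripotency markers, POU5F1 read 898 in N7, 30.7 to 101 in the other lines and 16.3 and 26 in SCs. NANOG read 5.8 to 35.4 in the lines, where it was above background on 5 of 6 arrays. In SCs it read 6.97 and 2.48 and was not above background. SOX2 read 46.8 to 99.4 in the lines against 459 and 551 in SCs. Neither a level nor a difference separates fewer cells of a type from less RNA per cell in such bulk samples.

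A gene was called at a Benjamini-Hochberg adjusted p under 0.05 over all genes tested in limma, with a difference of at least 2-fold. Between all eSLC lines and SCs, 19.7% of the 10958 genes tested were called higher in eSLCs and 15.7% lower. Of the 9 genes, 4 were called higher (KRT8, KRT18, KRT19 and KRT17), 1 was called lower (VIM) and 4 were not called. The median difference was 0.62 on the log2 scale over the 9 genes and 0.23 over all genes tested. The former is the value of KRT10, which lay at the floor set for low signals (13.3) on both SC arrays and in N7. It depends on that floor and does not measure a shift shared by the 9 genes.

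**Figure D1:**
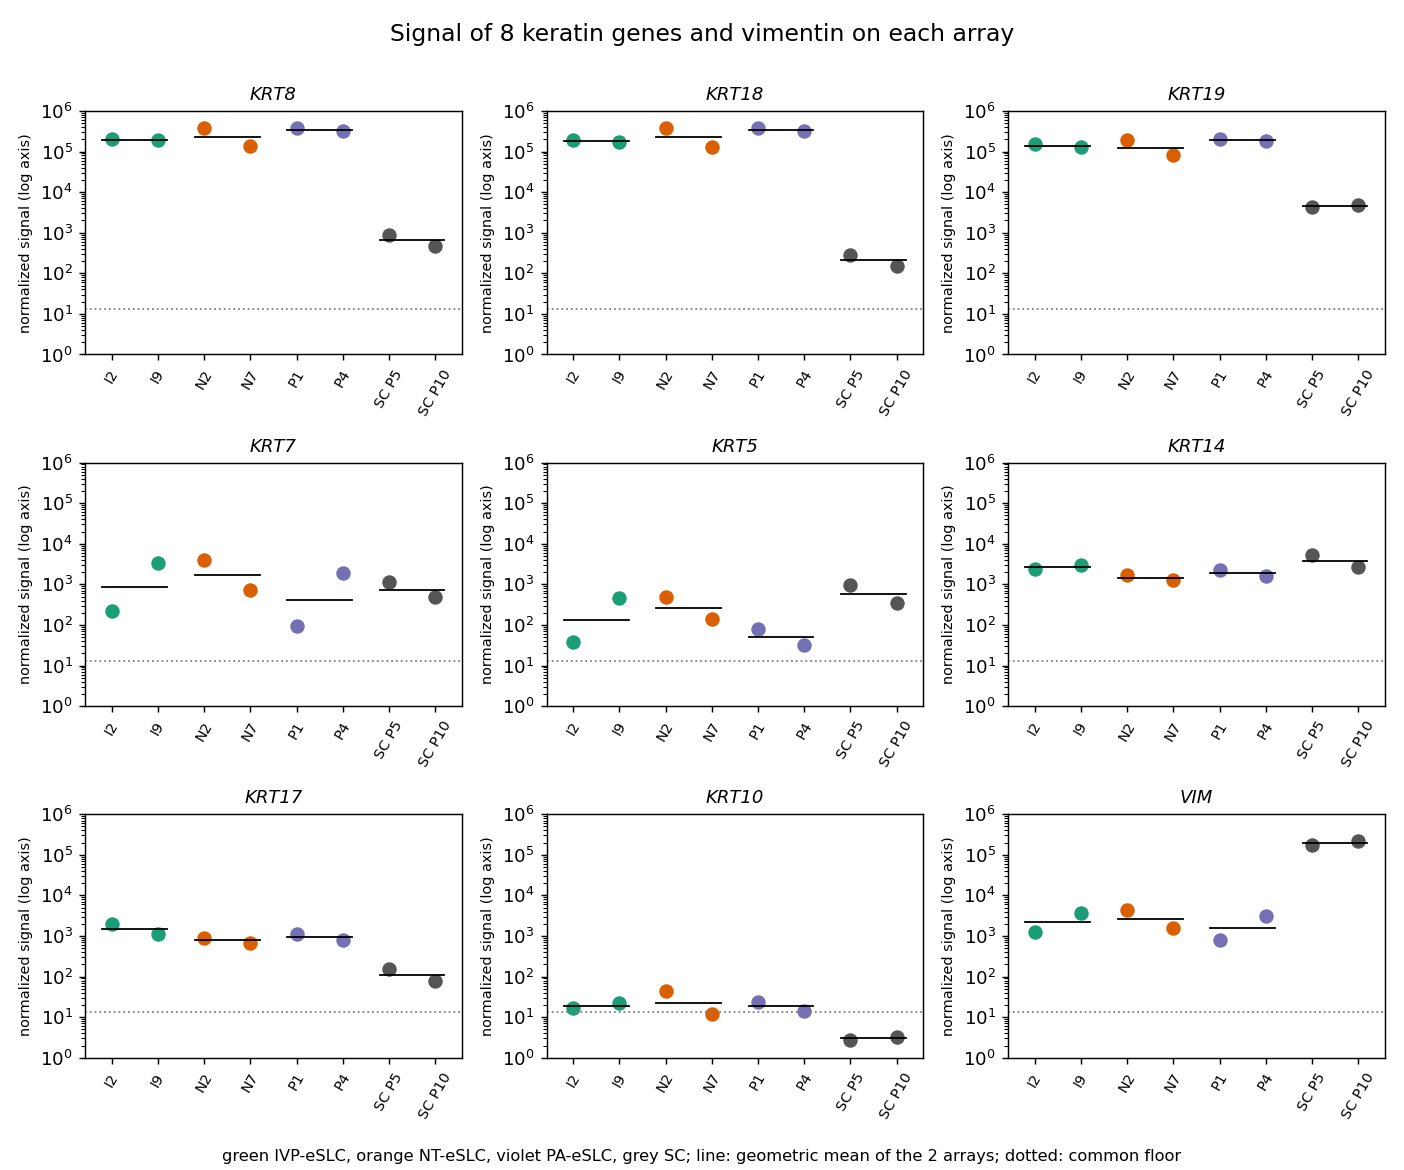
Normalized signal (log axis) of the brightest probe of each of the 9 genes on each of the 8 arrays, with the geometric mean of the 2 arrays of each condition as a line and the common floor of 13.3 dotted. KRT8, KRT18, KRT19 and KRT17 lie higher on all 6 eSLC arrays than on both SC arrays, VIM lies lower on all 6, and KRT7 spans the SC arrays; levels of different genes come from different probes and are not comparable.

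The first embryonic pair, KRT8 and KRT18, showed the widest gap between the cell types among the 8 keratin genes. The normalized signal of KRT8 was 198900 in I2, 187600 in I9, 372500 in N2, 135100 in N7, 378600 in P1 and 320500 in P4, and 878 and 475 in SCs at passages 5 and 10. KRT18 read 190900, 172100, 389600, 130600, 382400 and 313900 in the same lines and 286 and 155 in SCs. Every eSLC line lay above both SC arrays by more than 2 orders of magnitude for either gene.

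KRT8 rose by 8.58 ± 0.43 (log2 difference ± SE, 6 against 2 arrays), a 383-fold difference with an adjusted p of 4.31e-05 in limma. KRT18 rose by 10.17 ± 0.45, or 1151-fold, with an adjusted p of 2.91e-05. Other probes gave other sizes and the same direction. The 4 probes of KRT8 differed by 4.24 to 11.09 and the 3 of KRT18 by 10.17 to 12.16, and all 7 were called higher when each probe was fitted as its own feature, where 17.0% of the 34427 probes tested were. In the reference annotation, KRT8 and KRT18 are next to each other with no protein-coding gene between them, the single type I gene within the type II cluster.

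KRT19, the type I keratin of simple and ductal epithelia that lacks most of the usual tail domain, was also higher in eSLCs but was clearly measured in SCs. It read 151100 in I2, 126400 in I9, 190500 in N2, 82190 in N7, 198600 in P1 and 177700 in P4, against 4273 and 4738 in SCs. All 6 lines lay above both SC arrays, whose signals differed by 1.11-fold on this brightest probe. The difference was 5.04 ± 0.33, or 32.9-fold, with an adjusted p of 0.000122 in limma. The second probe gave 7.62 and read lower in SCs, at 1114 and 515.

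VIM moved the other way. It read 174300 and 214500 in SCs, and 1233 in I2, 3765 in I9, 4410 in N2, 1571 in N7, 780 in P1 and 3152 in P4. No eSLC line came near either SC array. VIM fell by 6.54 ± 0.72 on the log2 scale, which is 93.3-fold, with an adjusted p of 0.000928 in limma. Its 5 probes gave differences of -10.89 to -4.75, all called lower, where 16.5% of all probes were. VIM was nevertheless well above background on all 6 eSLC arrays.

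**Figure D2:**
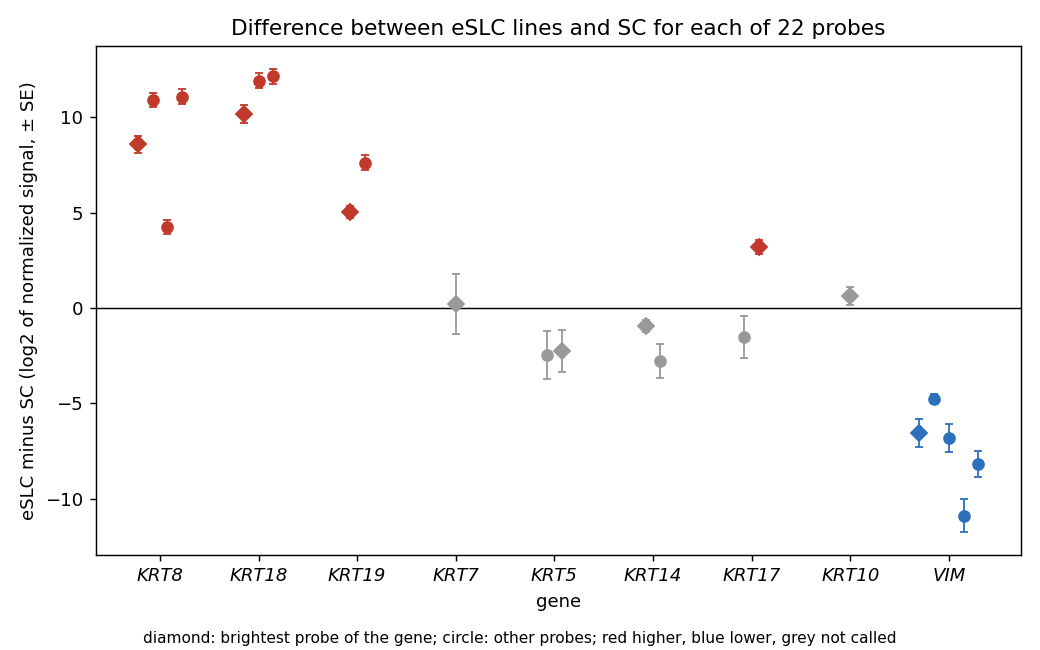
Log2 difference of eSLC lines minus SCs (± SE, 6 against 2 arrays) for each of the 22 probes of the 9 genes, with the brightest probe of a gene as a diamond and the other probes as circles. All 9 probes of KRT8, KRT18 and KRT19 are called higher and all 5 of VIM lower, while the 2 probes of KRT17 lie at 3.22 and -1.52.

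The other markers of fibroblasts moved with VIM. Of 13 fibroblast genes tested, VIM included, 11 were called lower in eSLCs, 0 higher and 2 were not called (DCN at -0.80 and FN1 at -1.42). Over all genes tested, 15.7% were called lower and 19.7% higher. The summed signal of the 13 was 71240 in N7, of which FN1 gave 64260, 13530 to 29660 in the other eSLC lines and 709200 and 872600 in SCs. In the lines POSTN was above background on 1 array and LUM on 4. COL1A2, a chain of type I collagen, read 375 in I2, 827 in I9, 947 in N2, 517 in N7, 351 in P1 and 801 in P4, which is the same order of lines as that of VIM. Of the 12 other markers, 1 had that order, while 3 were highest in N2, as VIM was, 4 in N7 and 5 in other lines. The part of other cells in the remaining VIM signal was not tested.

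KRT17 gave opposite answers by probe. This type I keratin is made in basal and stress-responsive epithelia. By its brightest probe (A_73_P349856) it read 1954 in I2, 1142 in I9, 916 in N2, 656 in N7, 1132 in P1 and 783 in P4, and 155 and 78.4 in SCs. All 6 lines lay above both SC arrays, and KRT17 rose by 3.22 ± 0.37, or 9.34-fold, with an adjusted p of 0.00105 in limma. By its other probe (A_73_P037816) it read 319, 409, 589, 31.2, 240 and 94.1 in the lines and 784 and 399 in SCs. That probe overlapped between the cell types and gave -1.52 ± 1.12, with an adjusted p of 0.313 in limma. With the mean of both probes the difference was 0.85 and not called (adjusted p = 0.325). The call on KRT17 therefore holds for 1 of its 2 probes. Probe sequences were not used here, so cross-hybridization between keratins of similar sequence was not tested.

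The basal pair, KRT5 and KRT14, was not called in the comparison of all eSLC lines with SCs. KRT5 read 37.1 in I2, 463 in I9, 499 in N2, 140 in N7, 77.5 in P1 and 32.7 in P4, and 963 and 349 in SCs. Lines I2, N7, P1 and P4 lay below both SC arrays and I9 and N2 lay between them. The difference was -2.27 ± 1.07 with an adjusted p of 0.132 in limma, and the second probe gave -2.46. KRT5 was called lower without line I9 (-2.88) and without I9 and N2 together (-3.18), the lines where it read highest. With any other single array left out it was not called, at differences of -3.00 to -1.54.

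KRT14 read 2441 in I2, 2983 in I9, 1670 in N2, 1288 in N7, 2223 in P1 and 1600 in P4, and 5377 and 2680 in SCs. Every line except I9, which lay between the SC arrays, was below both of them. The difference of -0.96 ± 0.31 passed the adjusted p (0.0488 in limma) and missed the 2-fold limit at 1.94-fold. Its second probe gave -2.79 with an adjusted p of 0.0512 and no overlap of the arrays. Without SC at passage 10 the difference was -1.46, which is called, and without SC at passage 5 it was -0.46, which is not.

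The 2 probes of KRT14 followed each other less closely over the lines (r = 0.55 over 6 arrays) than the dimmer probe of KRT14 followed the dimmer probe of KRT17 (r = 0.93). Both of these dimmer probes read highest in N2 and lowest in N7. KRT14 and KRT17 lie near each other in the type I cluster, with 1 protein-coding gene, KRT16, between them. These correlations are descriptions over 6 arrays.

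KRT7, the type II keratin of ductal and glandular epithelia and a usual marker of human trophoblast, did not separate the cell types. It read 221 in I2, 3445 in I9, 3922 in N2, 738 in N7, 93.9 in P1 and 1858 in P4, and 1145 and 478 in SCs. Lines I9, N2 and P4 lay above both SC arrays, I2 and P1 below both and N7 between them. The difference was 0.20 ± 1.53 with an adjusted p of 0.922 in limma. The SE is wide enough that a difference of several-fold in either direction was not detectable with these arrays.

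KRT10, the type I keratin of differentiating epidermis, was the dimmest on its single probe. It read 17.1 in I2, 21.9 in I9, 43.4 in N2, 12 in N7, 24.3 in P1 and 14.1 in P4, where it was well above background on all 6 arrays. In SCs it read 2.73 and 3.34 and was not well above background. As a bound, from the mean log2 signal of the lines against the lowest signal well above background on each SC array, KRT10 was at least 2.42-fold higher in eSLCs. The fitted difference was 0.62 ± 0.47 (adjusted p = 0.314 in limma). It became 2.60 with an adjusted p of 0.00633 when the floor was set 4 times lower.

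Against SCs, which are the same 2 arrays in each comparison, 5 genes were called in every origin. For IVP-eSLCs, where 17.7% of all genes were called higher and 14.6% lower, the calls were KRT8, KRT18, KRT19 and KRT17 higher and VIM lower. For PA-eSLCs, where 20.3% were called higher and 14.9% lower, they were the same 5 genes. For NT-eSLCs, where 15.8% were called higher and 13.9% lower, KRT14 was called lower as well, at -1.37 ± 0.39 with an adjusted p of 0.0387 in limma. KRT14 in NT-eSLCs lost its call in each fit that left out 1 array other than SC at passage 10, with slide as a term, and with both probes averaged.

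KRT8 differed from SCs by 8.22 in IVP-eSLCs, 8.44 in NT-eSLCs and 9.08 in PA-eSLCs (SE 0.53 each). KRT18 differed by 9.75, 10.07 and 10.69 (SE 0.56 each) and KRT19 by 4.94, 4.80 and 5.38 (SE 0.40 each). KRT17 differed by 3.76, 2.81 and 3.09 (SE 0.45 each) and VIM by -6.49, -6.20 and -6.95 (SE 0.88 each). For each gene, the 3 origins lay within 1 log2 unit of each other.

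In order of the mean log2 level, KRT8 and KRT18 ran from PA-eSLC over NT-eSLC and IVP-eSLC to SC, and KRT19 from PA-eSLC over IVP-eSLC and NT-eSLC to SC. KRT17 and KRT14 both ran from IVP-eSLC over PA-eSLC to NT-eSLC, with SC below them for KRT17 and above them for KRT14. KRT7 ran NT-eSLC, IVP-eSLC, SC and PA-eSLC. KRT5 ran SC, NT-eSLC, IVP-eSLC and PA-eSLC. KRT10 ran NT-eSLC, IVP-eSLC, PA-eSLC and SC, and VIM ran SC, NT-eSLC, IVP-eSLC and PA-eSLC. Both IVP-eSLC lines lay on the first slide and both PA-eSLC lines on the second, so origin and slide cannot be told apart between them. For KRT8 and KRT18, the lines on the second slide (N2, P1 and P4) all lay above those on the first (I2, I9 and N7).

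None of these orders among the origins held up against the spread between arrays. None of the 9 genes and none of the 10958 genes (0%) was called between NT-eSLC and IVP-eSLC, PA-eSLC and IVP-eSLC, or PA-eSLC and NT-eSLC in limma, where 306, 568 and 1091 genes had an unadjusted p under 0.05. The methods' t-test without adjustment, at the 2-fold limit, also called 0 of the 9 in each. The largest gaps were in KRT5, with PA-eSLC below NT-eSLC by 2.39 ± 1.32 (adjusted p = 0.561 in limma), and in KRT7, with PA-eSLC below NT-eSLC by 2.03 ± 1.88 (adjusted p = 0.693). Lines at passages 35 and 36 did not differ from lines at passages 30 and 31 by a call either (0%, with 100 genes at an unadjusted p under 0.05), and the gaps of the 9 genes ran from -1.02 for KRT5 to 0.92 for KRT7.

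For 3 of the 9 genes the lines differed widely, also within an origin. KRT7 spanned 41.8-fold from P1 to N2, KRT5 15.3-fold from P4 to N2 and VIM 5.65-fold from P1 to N2. The SD of the log2 level over the 6 lines was 2.20 for KRT7, above that of 99.2% of the genes tested, 1.72 for KRT5 (98.0%) and 1.00 for VIM (91.9%), where the median gene had 0.35. Within 1 origin, KRT7 differed between the lines by 15.6-fold in IVP-eSLC, 5.31-fold in NT-eSLC and 19.8-fold in PA-eSLC.

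KRT7 and VIM rose and fell together over the lines (r = 0.99 over 6 arrays). Both were high in I9, N2 and P4 and low in I2 and P1, with N7 between, so that within each origin the same line was the higher for both genes. The higher lines are on both slides, I9 on the first and N2 and P4 on the second. KRT5 shared the high values in I9 and N2 and was lowest in P4, and its r with KRT7 was 0.61. KRT7 had 1 probe, and the 2 of KRT5 ran together over the lines (r = 0.998). Of the 5 probes of VIM, 4 spanned 5.63-fold to 8.71-fold over the lines and the fifth, A_73_P100011, spanned 1.96-fold in another order.

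**Figure D3:**
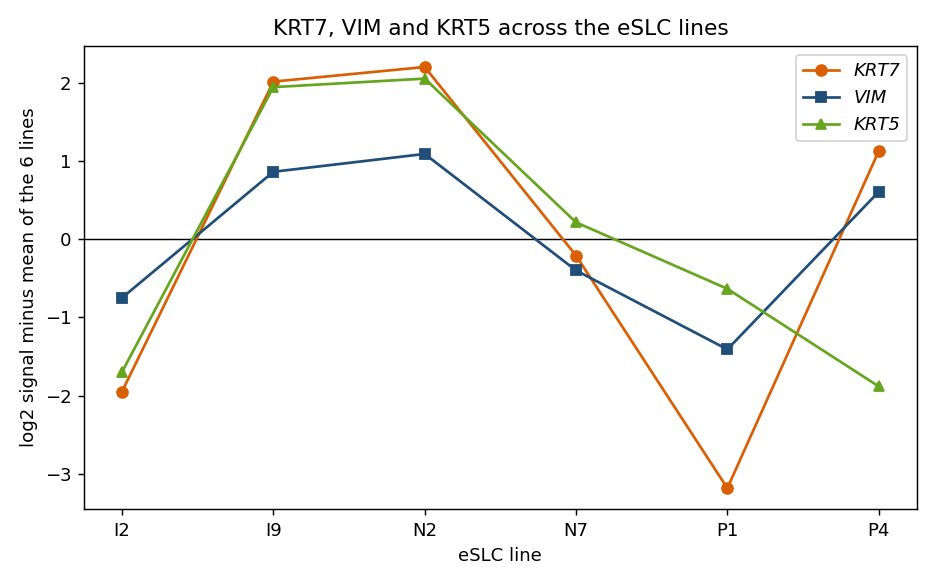
Log2 signal of KRT7, VIM and KRT5 in each of the 6 eSLC lines, as a deviation from the mean of the 6 lines. KRT7 and VIM share their high lines (I9, N2, P4) and low lines (I2, P1), while KRT5 is low in P4.

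Over the 6 lines, among 9872 genes well above background on all 6 arrays, the genes most like KRT7 were SMARCA4 (r = 0.998), COL8A1 (r = 0.996) and ISY1 (r = 0.996). Those most like VIM were TRMU (r = 0.99), YEATS4 (r = 0.99) and COL8A1 (r = 0.99), so that COL8A1, a short-chain collagen, was on both lists. Those most like KRT5 were H2AZ2, CYP4A22 and SMIM7 (r = 0.99 each). SMARCA4 spanned only 5636 to 7251 over the lines against 93.9 to 3922 for KRT7, so likeness here is of order and spacing, not of size. With 6 arrays and this many genes, such values describe the arrays and are no test.

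On normalized signals KRT8, KRT18 and KRT19 varied less over the lines than KRT7, KRT5 and VIM, by an amount that changed with the scaling, and with the series matrix KRT8 and KRT19 varied more than VIM (5.78-fold). By their brightest probes KRT8, KRT18 and KRT19 spanned 2.80-fold, 2.98-fold and 2.42-fold over the lines. N7 was the lowest in all of them and N2 or P1 the highest. By their other probes N7 was also the lowest. There the highest line was I2, N2 or P4 for KRT8, P4 for KRT18 and P1 for KRT19. The spans were 1.89-fold to 2.34-fold for KRT8, 1.97-fold and 2.23-fold for KRT18, and 2.23-fold for KRT19. N7 had the highest 75th percentile of all arrays (4092 units) and N2 and P1 the lowest (1192 and 1210). Before scaling, KRT8 read 444000 to 560400 units over the lines, a 1.26-fold span, KRT18 459300 to 537800 units, a 1.17-fold span, and KRT19 spanned 1.88-fold. On every eSLC array these were among the brightest probes of all, with 8 to 37 of the 43653 probes brighter than KRT8 and 11 to 78 brighter than KRT18. Under quantile normalization the spans were 1.13-fold for KRT8, 1.28-fold for KRT18 and 1.37-fold for KRT19. With median scaling they were 2.79-fold, 3.02-fold and 2.37-fold, with the series matrix 7.44-fold, 5.14-fold and 7.67-fold, and with the processed signal 6.46-fold, 6.79-fold and 8.27-fold. The source of these differences between lines was not tested.

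**Figure D4:**
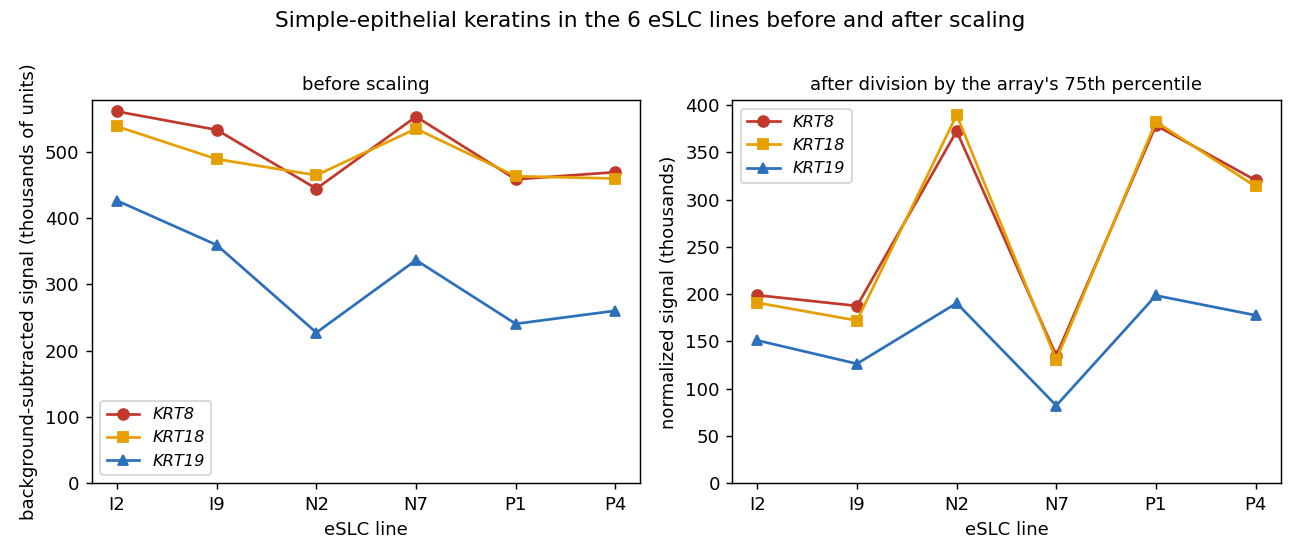
Signal of the brightest probes of KRT8, KRT18 and KRT19 in the 6 eSLC lines before scaling (left, scanner units divided by 1000) and after division by the array's 75th percentile (right, normalized signal divided by 1000). N7 is among the higher lines before scaling and the lowest after it, and N2 and P1 go the other way.

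By their brightest probes, KRT8 and KRT18 followed each other over the lines (r = 0.998 over 6 arrays). Between probes of the same gene, r was 0.60 to 0.99 for KRT8 and 0.85 to 0.97 for KRT18. The genes most like the brightest probes were of ribosomal proteins, RPS12, RPL8 and RPL18 for KRT8 and RPS10, RPS12 and RPLP0 for KRT18 (r = 0.999 or above for each, rounded). The part of the array scaling in this likeness was not tested. Those most like KRT19 were CRIP2, IQCD and PPY (r = 0.99 each). The difference between eSLCs and SCs in KRT8 was 7.61 within the first slide and 9.55 within the second, and in KRT18 9.15 and 11.19. VIM was nearly level between the slides at -6.49 and -6.60.

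Within the slides KRT19 gave 4.77 and 5.32, KRT17 2.87 and 3.57, KRT5 -2.85 and -1.69, KRT14 -1.35 and -0.57, and KRT10 0.36 and 0.89. KRT7 was the gene that changed direction, with -0.47 on the first slide and 0.88 on the second. The SC array of the first slide read higher than the other for KRT8 (1.85-fold), KRT18 (1.85-fold), KRT7 (2.39-fold), KRT5 (2.76-fold), KRT14 (2.01-fold) and KRT17 (1.98-fold), and its 75th percentile was 3092 units against 1610. Since the first slide holds SCs at passage 5 and the second SCs at passage 10, slide, scaling and passage cannot be told apart in these gaps.

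KRT17 and KRT14 spanned 2.98-fold and 2.32-fold over the lines. The genes most like KRT17 were KRT31 (a hair keratin), CFI and DYSF (r = 0.99, 0.98 and 0.98), and those most like KRT14 were RUNX3, CDH15 and AGRP (r = 0.99, 0.99 and 0.97). KRT10 spanned 3.26-fold, with HS6ST1, PERP and CALML4 the most like it (r = 0.99 each).

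Among the other keratins, most stayed near their SC level or below background. Of 34 such genes, 18 could be tested between all eSLC lines and SCs, and 4 were called higher, 2 lower and 12 not at all, with a median of 0.14. These counts are close to the shares over all genes tested, 19.7% higher and 15.7% lower. KRT15, a type I basal keratin whose gene is the direct neighbour of KRT19, read 21530 to 49360 in the lines and 391 and 218 in SCs, and rose by 7.08 ± 0.36 (adjusted p = 4.54e-05 in limma). KRT6B, a type II keratin induced in wounded epidermis, read 6246 to 12080 against 224 and 88.4 and rose by 6.09 ± 0.41 (adjusted p = 0.000137). KRT31 was not above background in SCs and passed the filter through the eSLC lines alone. As a bound it was at least 11.0-fold higher. Its fitted difference, with both SC arrays at the floor, was 2.79 ± 0.27 (adjusted p = 0.000579). KRT85 rose by 1.01 ± 0.19 (adjusted p = 0.00721).

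The falls called were KRT86 and KRT74. KRT86, a hair keratin, fell by 2.45 ± 0.48 (adjusted p = 0.00811 in limma). KRT74 was not above background in any line and passed the filter through SCs alone. As a bound it was at least 3.61-fold lower. Its fitted difference, with all 6 lines at the floor, was -1.41 ± 0.14 (adjusted p = 0.000669 in limma). KRT75 and KRT6A were not called and are named after their values were seen. KRT75 read 20.3 in I2, 275 in I9, 315 in N2, 60.8 in N7, 23.9 in P1 and 87.5 in P4, and KRT6A, above background in 4 of the lines, read 8.52, 120, 100, 19, 0.65 and 23.9 in the same order. In SCs KRT75 read 261 and 75.4, and KRT6A read 340 and 153, above all 6 lines. The differences were -0.85 ± 1.22 (adjusted p = 0.596 in limma) for KRT75 and -2.86 ± 1.01 (adjusted p = 0.0604) for KRT6A. Among the lines both genes were highest in I9 and N2, as KRT7, KRT5 and VIM were. Of the 16 keratin genes that could not be tested, 9 were above background on no array. KRT20, also named after its values were seen, read 326 in N7 and was not above background on any other array.

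The intermediate filament genes outside the keratin family did not move as 1 group. Of 12 tested besides VIM, 6 were called higher (19.7% of all genes), 3 lower (15.7% of all genes) and 3 not at all, with a median of 1.34. SYNC (syncoilin, a filament protein of muscle) fell by 5.73 ± 0.25 (adjusted p = 2.51e-05 in limma) and NES (nestin, a partner of vimentin in progenitor cells) fell by 4.69 ± 0.38 (adjusted p = 0.000272). LMNA, the nuclear lamin A gene, fell by 1.57 ± 0.23 (adjusted p = 0.00286), whereas LMNB1, its B-type counterpart, rose by 1.34 ± 0.27 (adjusted p = 0.00871).

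PRPH, the peripherin of peripheral neurons, read 56120 in I2, 2318 in I9, 3649 in N2, 2825 in N7, 46830 in P1 and 9667 in P4 against 31.9 and 34.4 in SCs, and rose by 8.12 ± 1.22 (adjusted p = 0.00312 in limma). I2 and P1, the lines lowest in KRT7 and VIM, were the highest in PRPH. BFSP1, a filament protein of the eye lens, rose by 4.80 ± 0.38 (adjusted p = 0.000257), and the muscle filament gene DES by 3.11 ± 0.92 (adjusted p = 0.0358), with 1 of its 4 probes at least 2-fold in the other direction. The neurofilament genes NEFL and NEFM were not above background in SCs and were at least 18.6-fold and 5.63-fold higher in eSLCs.

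Genes that anchor keratin filaments at desmosomes were higher in eSLCs. Of 17 anchors and cross-linkers tested, 10 were called higher (19.7% of all genes), 1 lower (15.7% of all genes) and 6 not at all, with a median of 1.87. DSP (desmoplakin, which ties keratin to the desmosome) rose by 7.86 ± 0.33 (adjusted p = 2.22e-05 in limma), and the plakophilins PKP2, PKP3 and PKP1, which link desmosomal cadherins to desmoplakin, rose 182-fold, 128-fold and 69.6-fold. The desmosomal cadherin DSG2 rose 123-fold and PERP, a desmosomal membrane protein, 57.4-fold. MACF1, a linker of actin and microtubules, fell by 1.24 ± 0.23 (adjusted p = 0.00638). The hemidesmosomal integrins ITGA6 and ITGB4, which anchor the KRT5 and KRT14 filament to the basement membrane, gave -0.06 and 1.04 and were not called.

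The transcription and splicing factors of epithelial cells were also mostly higher. Of 10 tested, 8 were called higher (19.7% of all genes), 1 lower (15.7% of all genes) and 1 not at all, with a median of 5.53. The grainyhead factor GRHL1 rose by 8.75 ± 0.26 (adjusted p = 7.69e-06 in limma), OVOL1 by 7.62, the splicing regulator ESRP2 by 6.49 and ELF3 by 4.57. OVOL2 and ESRP1 were not above background in SCs and were at least 580.4-fold and 169-fold higher. KLF4 fell by 2.34 ± 0.30 (adjusted p = 0.00177). TP63, the master factor of basal epithelium and of KRT5 and KRT14, read 7.22 to 50.8 in the lines, was highest in I9 and N2, and was not above background in SCs or in N7.

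**Figure D5:**
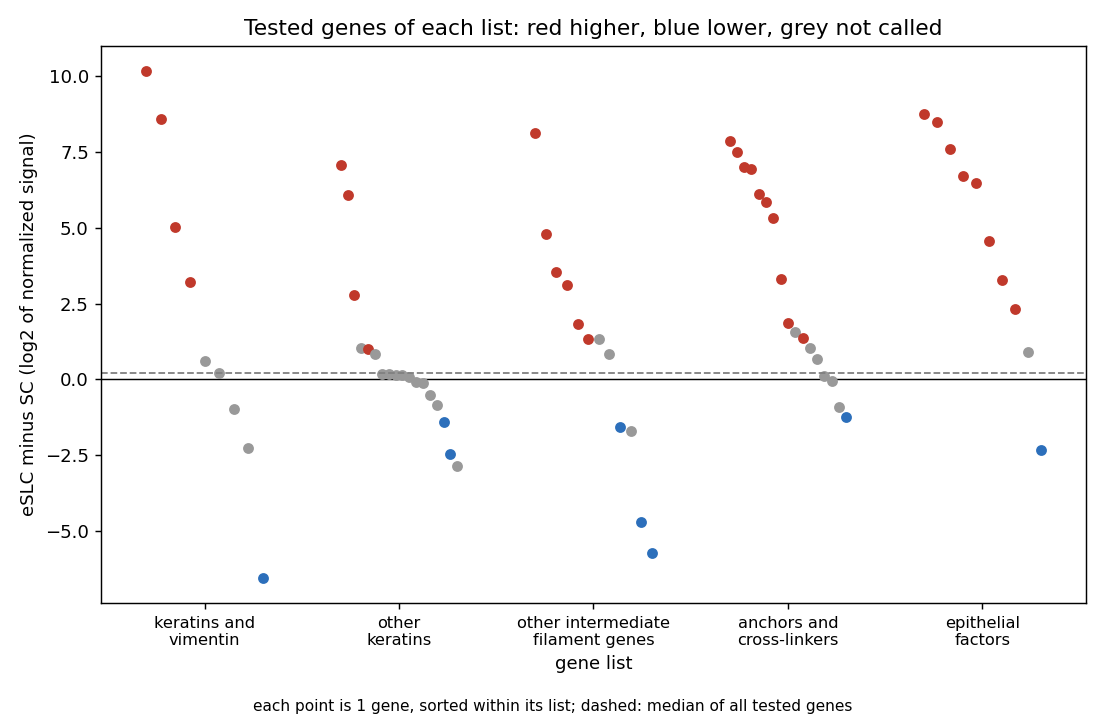
Log2 difference of eSLC lines minus SCs for each tested gene of 5 lists, sorted within its list, with red for genes called higher, blue for lower and grey for not called, and the median of all tested genes (0.23) dashed. Most anchors and epithelial factors are called higher, while the other keratins cluster around 0.

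Markers of stratified epithelium were mixed in both cell types. Of 11 keratinocyte genes tested, among them KRT5, KRT14, KRT17 and KRT10, 4 were called higher (PKP1, DSG3, KRT17 and SFN) and 0 lower. Over all genes tested, the shares were 19.7% and 15.7%. The summed signal of the 12 keratinocyte genes with a probe was 93770 to 203300 in the lines and 65910 and 39280 in SCs, and most of it was SFN. KRT5 and KRT14 were well above background on both SC arrays, where TP63 and KRT10 were not. The presence of epithelial cells among the SCs was not tested.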

How the data were processed

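RNA of 6 eSLC lines and of SCs at 2 passages was hybridized to 8 one-colour Agilent oligo arrays for cattle. The authors quantified the scanned spots with Feature Extraction, normalized them with GeneSpring GX and deposited the linear signal intensities of each spot and a series matrix of normalized intensities. Here the deposited background-subtracted signal was averaged per probe after 18 outlier values were left out, divided by the array's 75th percentile, set to 1000 there, floored at 13.3 and log2-transformed. The processed signal was not used as the main column, since for 33482 of 43653 probes it did not follow the background-subtracted signal in 6 of 8 arrays (Spearman correlation 0.0045 to 0.0098, against 0.99 in I2 and 0.989 in N2).

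In the series matrix, the SC arrays lay within 1% of each other for 91.3% of the 10065 probes compared of one class (3.27% in the background-subtracted signal), and probes of that class and the others had different scales. Its scale, centring and normalization are not given in the sources used here. Normexp used the median signal, since the mean was not among the columns used.

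A RefSeq gene table for cattle gave names to 26743 probes of 12603 genes. That assembly differs from the build of the array design, so no coordinates are given. Each gene was read from its brightest probe by mean log2 signal. A gene was tested if both arrays of any condition were well above background, in limma 3.58.1 (R 4.3.3) with a mean per condition over all 8 arrays, which was checked on simulated data. Per list, up to 6 called rises and 6 falls are named, and per gene the 3 most correlated genes. The genes and lists were chosen with earlier results of these data known, and probes other than the brightest and spans under other scalings were added after the data were seen. Alternatives were the processed signal, normexp, median and quantile scaling, other floors and filters, probe averages, the series matrix, slide as a term, the conditions compared alone, SCs as 1 sample, the methods' t-test and leaving out arrays. Figures were drawn with matplotlib 3.10.9 in Python 3.11.15.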

Additional observations from a re-analysis of the deposited data

How the results depend on the processing

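Between all eSLC lines and SCs, KRT8, KRT18, KRT19 and VIM kept their call in every alternative with a test on their brightest probe or the average of their probes, and their direction within each slide, where there was no test. With the values within slides, the ranges were 7.56 to 9.55, 9.15 to 11.58, 4.77 to 6.92 and -8.93 to -6.21 on the log2 scale. KRT17 (0.85 to 3.71) lost its call with both probes averaged (0.85), and its other probe gave -1.52. It also lost its call with the processed signal (2.08, adjusted p = 0.698 in limma). Its brightest probe is among the 33482 whose processed signal did not follow the background-subtracted signal, so that loss says nothing about KRT17. The processed signal also lowered the calls over all genes from 2155 higher and 1722 lower to 276 and 188. KRT7 had no call in any of them and turned to -0.38 with the series matrix, -0.46 without I9, -0.20 without N2, -0.51 without P4, -0.42 without SC at passage 10, -0.86 without I9 and N2 and -0.47 within the first slide (leaving out 1 array at a time, -0.51 to 0.92). The number of genes called lower in all eSLC lines was 2 with median scaling, quantile normalization or probe averages (VIM and KRT14), 3 with the series matrix (KRT5 too), 2 without I9 and N2 (KRT5 and VIM), and 1 to 2 without 1 array at a time (KRT5 without I9, KRT14 without SC at passage 10). In IVP-eSLC the processed signal left 2 calls higher (KRT8 and KRT18), the series matrix 3 lower, and the Benjamini-Hochberg adjusted form of the methods' t-test 0 lower. In NT-eSLC that t-test left 0 higher and 0 lower, and VIM alone (1) was called lower with the processed signal, no filter, probe averages, slide as a term, the conditions compared alone, SCs as 1 sample, the unadjusted t-test, and without I9 and N2, and 1 to 2 genes without 1 array at a time. In PA-eSLC the genes called lower were 2 with the series matrix, with the conditions compared alone and without I9 and N2, 0 with the adjusted t-test and 1 to 2 without 1 array at a time. KRT7 was called higher in NT-eSLC than in IVP-eSLC with the series matrix (1 gene). The median difference over all genes was 0.23, and 0.41 with the processed signal, 0.12 with quantile normalization and 0.06 with the series matrix. Where 1 array was left out of a condition, the remaining array was assumed to vary like the others. With 2 arrays per condition, calls between origins rest on the spread shared by all 8 arrays. No paired analysis was possible because the labels give each sample the replicate number 1, and the numbers 1 and 2 used here follow the order of the samples and pair nothing.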
